A study of Mus musculus with 6 samples.

Results

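A set of 10 carriers that move amino acids and small peptides across the plasma membrane of gut epithelium were followed in mouse colon with and without chronic colitis. The 10 genes were Slc15a1, Slc6a14, Slc6a19, Slc7a9, Slc3a1, Slc3a2, Slc1a1, Slc1a5, Slc7a5 and Slc7a8. They were chosen by symbol from the 24421 gene rows of the deposited tables, and each matched 1 row. RNA had been sequenced from 6 samples of colon tissue of C57BL/6 mice, all labelled with an age of 7 weeks. In 3 of them chronic colitis had been brought on by dextran sulfate sodium (DSS), a polysaccharide toxic to the lining of the colon, and the other 3 were labelled as control. The labels give no DSS dose or schedule and do not say which stretch of colon was taken, or whether each sample is a separate animal. The p-values therefore reflect the spread among these 6 samples, part of which could be technical.

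Dietary and bacterial protein reaches the gut epithelium as small peptides and free amino acids. Peptide carriers draw their substrates in together with protons, many neutral amino acid carriers use the sodium gradient, and exchangers swap one amino acid for another. Several carriers are made of a transporting light chain and a type II membrane glycoprotein, the heavy chain, which brings the pair to the cell surface. Most free amino acids are absorbed in the small intestine, while the colon expresses a smaller set of these carriers.

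Levels are given as FPKM, the fragments counted per kilobase of a transcript after scaling for sequencing depth, which account for transcript length and so allow levels of different genes to be compared. Sums over all genes lay between 609544 and 678076 FPKM per sample. Read totals are unknown, so no counting interval is given. A low value can be a failed estimate: the housekeeping gene Gapdh was listed at 0, 21.4 and 36.1 FPKM in DSS 1, 2 and 3. In control 1, 2 and 3 it was listed at 2.00, 0.117 and 0.145 FPKM. Markers of gut epithelium were read in every sample, and their summed level over 11 genes lay between 9032 and 10648 FPKM in DSS and between 13218 and 16887 FPKM in control colon, carried mostly by Krt8, Lgals4 and Krt19. The keratins Krt8 and Krt19 were called lower and the other 9 were not called. Among those, Cdx2 had 21.5, 102 and 97.6 FPKM in DSS 1, 2 and 3 and 12.6, 19.4 and 37.0 FPKM in control 1, 2 and 3 (limma adjusted p = 0.196). Of the markers of other tissue cells, 1 of 8 for fibroblasts (Pdpn) rose. None of 7 for smooth muscle, 6 for endothelium or 7 tested for enteric neurons and glia was called. At an unadjusted limma p under 0.05, 2 fibroblast and 1 endothelial markers were higher. By the same cut-off 5 smooth muscle and 1 neuron or glia markers were lower. Among all 12348 tested genes 2505 were higher and 988 lower by it. In whole tissue, fewer cells of a type and less RNA per cell cannot be told apart. Over all tested genes DSS 1 had r = 0.936 with DSS 2 and 0.953 with DSS 3, and at most 0.937 with a control sample, whereas DSS 2 and DSS 3 had at most 0.909 with one. The tests of the transporters, their ratios and the lists of other carriers, partners and metabolic enzymes were also run without DSS 1.

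Of the 10 transporters 9 reached 1 FPKM in at least 3 samples and were tested, and Slc6a19 did not. Slc15a1 fell and Slc3a1 rose in DSS, and the other 7 did not pass the test (limma on log2(FPKM + 1), Benjamini-Hochberg adjusted p under 0.05 over 12348 genes). Among all tested genes 8.90% were called, 6.34% higher and 2.56% lower. The DSS and control values of 2 of the 9 genes did not overlap, against 35.1% of all tested genes, so separated groups were no more common here than elsewhere. The median log2 fold change of the 9 genes was -0.00, beside 0.13 over all tested genes. The calls split as 71.2% higher over all genes, and this share moved to 50.5% under median-of-ratios scaling, to 48.5% under upper-quartile scaling and to 93.3% when samples were scaled to the epithelial markers. The median of all tested genes moved with it, from 0.13 to -0.00, -0.02 and 0.43. Slc15a1 was lower and Slc3a1 higher under each of these scalings, and both kept their calls in them.

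**Figure D1:**
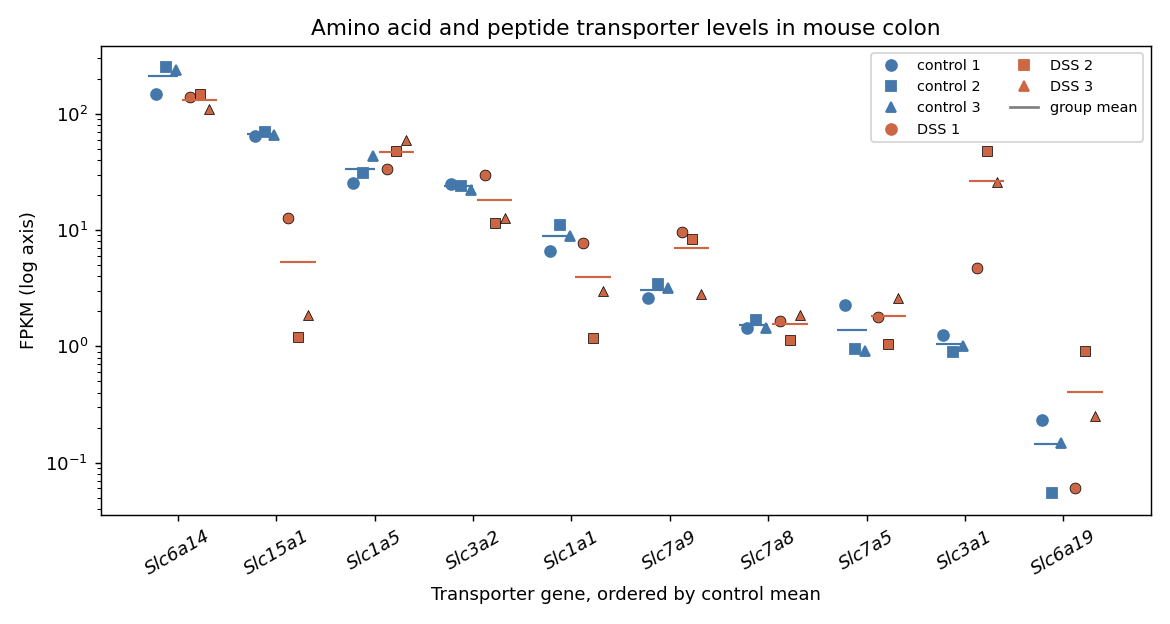
FPKM of the 10 transporters on a log axis in each of the 3 control (blue) and 3 DSS (orange) samples, with horizontal lines at group means. Slc6a14 is highest in both groups, Slc15a1 drops from the second to the sixth place by mean, and Slc3a1 climbs from the ninth to the third.

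In control colon the levels ran in the order Slc6a14, Slc15a1, Slc1a5, Slc3a2, Slc1a1, Slc7a9, Slc7a8, Slc7a5, Slc3a1 and Slc6a19. The steps from Slc6a14 to Slc15a1, from Slc15a1 to Slc1a5, from Slc3a2 to Slc1a1, from Slc1a1 to Slc7a9, from Slc7a9 to Slc7a8 and from Slc3a1 to Slc6a19 had no overlap of the 3 samples of one gene with those of the next. Slc1a5 lay between 25.6 and 43.1 FPKM and Slc3a2 between 22.3 and 25.1 FPKM, so these neighbours were separated by a narrow margin. Slc7a5 overlapped with its neighbours Slc7a8 and Slc3a1. In DSS colon the order by mean was Slc6a14, Slc1a5, Slc3a1, Slc3a2, Slc7a9, Slc15a1, Slc1a1, Slc7a5, Slc7a8 and Slc6a19. There neighbours were apart at 3 steps, from Slc6a14 to Slc1a5, from Slc3a2 to Slc7a9 and from Slc7a8 to Slc6a19, and overlapped at the others. Slc6a14 alone supplied between 49.8% and 57.7% of the summed FPKM of the 10 genes in DSS and between 53.2% and 63.7% in control colon. The sums of the 10 genes were 241, 269 and 220 FPKM in DSS 1, 2 and 3 and 277, 396 and 387 FPKM in control 1, 2 and 3.

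Slc15a1 encodes PepT1, the proton-coupled carrier that takes up dipeptides and tripeptides from the gut lumen. It lies on chromosome 14, 121459621 to 121505252 on the minus strand in GRCm38. The control samples held 64.4, 70.4 and 65.3 FPKM and the DSS samples 12.8, 1.21 and 1.85 FPKM. Every DSS sample was below every control sample, and DSS 1 was the least affected, at 5.21-fold below the control mean, where DSS 2 and DSS 3 were 54.9-fold and 36.0-fold below it. The log2 fold change was -3.93 ± 0.65 (SE, 95% interval -5.48 to -2.39, limma adjusted p = 0.0165), the thirteenth largest fall among 12348 genes. Without DSS 1 the log2 fold change was -4.75 (adjusted p = 2.77e-05). The call was lost without DSS 3 (adjusted p = 0.0605), control 1 (0.0650), control 2 (0.0730) or control 3 (0.0773). Relative to the 10 genes together, Slc15a1 supplied between 16.9% and 23.2% of the sum in control colon and 5.31%, 0.452% and 0.842% in DSS 1, 2 and 3.

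The 250 bases before the start site of Slc15a1 are shown because this gene had the largest fall of the 10 (RefSeq, GRCm38.p6, chr14:121505255-121505504, minus strand). None of the searched motifs was found in them, so no base is in capitals.
Slc15a1: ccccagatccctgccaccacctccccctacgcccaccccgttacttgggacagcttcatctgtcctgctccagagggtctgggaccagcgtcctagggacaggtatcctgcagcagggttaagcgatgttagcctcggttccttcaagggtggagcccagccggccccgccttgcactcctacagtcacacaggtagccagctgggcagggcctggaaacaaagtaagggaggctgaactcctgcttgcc

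Slc3a1 encodes rBAT, the heavy chain that carries the cystine and dibasic amino acid transporter to the apical membrane of kidney tubule and gut cells. Its light chain is encoded by Slc7a9, and mutations of either gene cause cystinuria. Slc3a1 lies on chromosome 17, 85028376 to 85064236 on the plus strand in GRCm38. The control samples held 1.26, 0.889 and 0.9998 FPKM and the DSS samples 4.77, 48.1 and 25.8 FPKM. All DSS samples were above all control samples, but they were 4.54-fold, 45.8-fold and 24.6-fold above the control mean, so the size of the rise differed between them. The log2 fold change was 3.27 ± 0.72 (SE, 95% interval 1.54 to 4.99, limma adjusted p = 0.0407). The gene moved from the ninth to the third most abundant of the 10 by mean FPKM.

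The call of Slc3a1 was lost in 7 of 16 alternatives. Without DSS 1 it was retained, with a log2 fold change of 4.15 (adjusted p = 0.000209). It was lost without DSS 2 (adjusted p = 0.0639), DSS 3 (0.124), control 1 (0.112), control 2 (0.128) or control 3 (0.139), and over all alternatives the adjusted p reached 0.139. Exons of Prepl on the opposite strand overlap those of Slc3a1, and libraries that do not record strand cannot tell reads of the overlap apart. Prepl had 12.6, 11.5 and 15.7 FPKM in DSS 1, 2 and 3 and 9.63, 10.4 and 10.2 FPKM in control 1, 2 and 3 (log2 fold change 0.35 ± 0.16 SE, limma adjusted p = 0.199).

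Slc7a9, the light chain gene, lies on chromosome 7, 35448796 to 35466036 on the plus strand in GRCm38. It had 9.72, 8.41 and 2.84 FPKM in DSS 1, 2 and 3 and 2.61, 3.41 and 3.20 FPKM in control 1, 2 and 3. DSS 1 and DSS 2 were above all control samples, and DSS 3 lay among them. The log2 fold change was 0.85 ± 0.38 (SE, 95% interval -0.04 to 1.73, limma adjusted p = 0.193). Without DSS 3 the gene passed the test (log2 fold change 1.31, adjusted p = 0.0197, 0.0197 to 0.376 over all alternatives).

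The balance of light to heavy chain RNA was compared as the log2 ratio of Slc7a9 to Slc3a1, each as FPKM + 1. The ratio was 0.68, 1.22 and 1.07 in control 1, 2 and 3, so the light chain RNA was the more abundant. It was 0.89, -2.38 and -2.80 in DSS 1, 2 and 3: DSS 1 lay within the control values, while the heavy chain RNA was the more abundant in DSS 2 and DSS 3. Without the added 1, DSS 1 had a log2 ratio of 1.03 and fell just below the lowest control sample, at 1.05. The difference of means was -2.42 (two-sided exact permutation p = 0.2, adjusted p = 0.333 over 5 ratios). With 3 samples against 3 the smallest p this test can give is 0.1.

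The promoters of the heavy and light chain genes are shown together because their products form one transporter and the heavy chain gene was called (RefSeq, GRCm38.p6, chr17:85028097-85028346 for Slc3a1 and chr7:35448842-35449091 for the first of 2 start sites of Slc7a9, both on the plus strand). Capitals mark motif matches.
Slc3a1: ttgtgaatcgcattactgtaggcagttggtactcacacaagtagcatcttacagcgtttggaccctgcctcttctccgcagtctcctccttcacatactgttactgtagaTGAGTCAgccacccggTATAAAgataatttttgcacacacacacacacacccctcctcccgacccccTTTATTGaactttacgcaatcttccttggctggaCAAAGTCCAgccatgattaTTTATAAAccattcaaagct
Slc7a9: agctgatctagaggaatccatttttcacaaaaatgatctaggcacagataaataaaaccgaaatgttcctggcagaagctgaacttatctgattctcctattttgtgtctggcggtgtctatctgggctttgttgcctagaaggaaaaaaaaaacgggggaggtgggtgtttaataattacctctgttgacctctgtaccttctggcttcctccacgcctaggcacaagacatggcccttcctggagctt

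A total of 7 motifs were searched on both strands in the 250 bases before each start site. They were TTTATNG (core of caudal factors such as Cdx2), GTTAATNAT (HNF1), CAAAGTCCA (HNF4), TGANTCA (AP-1), GGGNNTTTC (NF-kappaB), TGATGNAA (the amino acid response site bound by ATF4) and TATAAA. The table of promoters held 8 of the 10 genes, with 9 start sites. The Slc3a1 promoter held CAAAGTCCA at position -39, TTTATTG at position -73, TGAGTCA at position -140 and TATAAA at positions -124 and -18, the last overlapping a match on the other strand at position -20 (positions are of the first base, counted back from the start site). Among 32851 promoter windows of the same length, 0.384% held the HNF4 motif, 9.81% the caudal motif, 6.75% the AP-1 motif and 12.4% TATAAA. The other motif match among these genes was TGAGTCA at position -82 of Slc6a14. GTTAATNAT was in 0.737%, GGGNNTTTC in 3.72% and TGATGNAA in 3.45% of all windows, and no window of the 8 genes held one of them. A match is a run of letters and was not tested as a binding site.

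**Figure D2:**
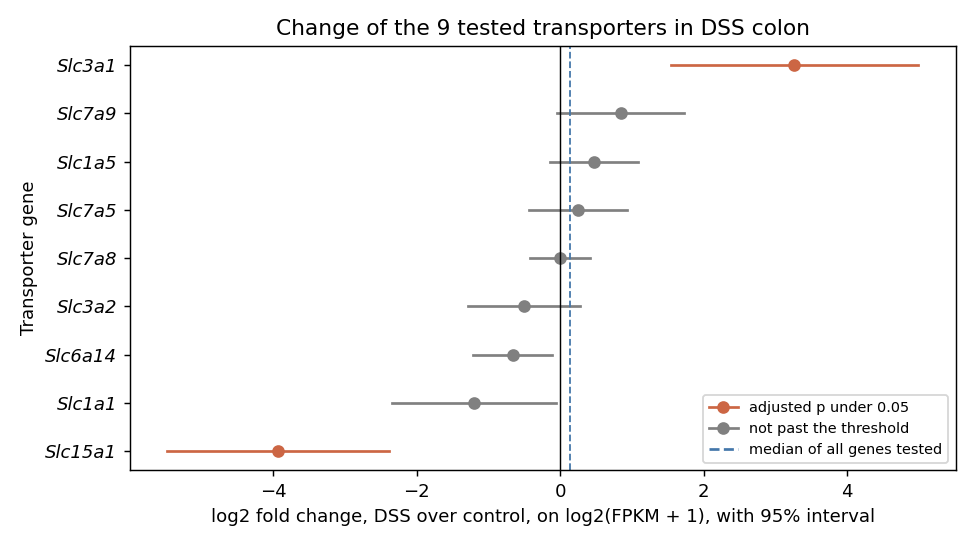
Log2 fold change (DSS over control, on log2(FPKM + 1)) of the 9 tested transporters with 95% intervals, and the median of all tested genes as a dashed line at 0.13. The intervals of Slc3a1 (1.54 to 4.99) and Slc15a1 (-5.48 to -2.39) lie farthest from 0.

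Genes known to differ in level along the bowel were read beside Slc3a1 and Slc15a1. Hoxb13, a homeobox gene of the most distal gut, had 183, 0.472 and 16.1 FPKM in DSS 1, 2 and 3 and 129, 229 and 278 FPKM in control 1, 2 and 3 (limma adjusted p = 0.223). DSS 1 lay within the control values, and it was also the DSS sample with the lowest Slc3a1 and the highest Slc15a1. Of 8 Hox genes of the colon 6 were tested and 1, Hoxd11, was called, lower in DSS, at 1.01, 1.21 and 0.455 FPKM in DSS 1, 2 and 3 and 2.76, 3.61 and 2.91 FPKM in control 1, 2 and 3. At an unadjusted limma p under 0.05 Hoxa13 and Hoxd13 were lower as well, a cut-off by which 988 of all 12348 tested genes were lower. Hoxb6, a Hox gene of more proximal gut, had 1.17, 39.2 and 14.0 FPKM in DSS 1, 2 and 3 and 0.539, 1.78 and 1.40 FPKM in control 1, 2 and 3 (limma adjusted p = 0.192), with DSS 2 and DSS 3 above the control samples. The summed level of the 8, mostly Hoxb13 in control colon, lay between 36.4 and 209 FPKM in DSS and between 165 and 329 FPKM in control colon, and Hoxc6 was listed at 0 in every sample but DSS 2 (0.559 FPKM).

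Fabp2, the fatty acid binding protein of absorptive enterocytes, had 107, 1057 and 727 FPKM in DSS 1, 2 and 3 and 123, 113 and 136 FPKM in control 1, 2 and 3 (limma adjusted p = 0.208). The 2 DSS samples with the highest Fabp2 were those with the highest Slc3a1. Of 12 genes of the small intestine 6 were tested and none was called. At an unadjusted limma p under 0.05, 3 were higher in DSS, namely Fabp6, Slc10a2 and Alpi, and none was lower. By that cut-off 2505 of all 12348 tested genes were higher and 988 lower. Slc10a2, the bile acid carrier of the ileum, had 6.31, 62.4 and 14.1 FPKM in DSS 1, 2 and 3 and 2.05, 1.49 and 1.61 FPKM in control 1, 2 and 3 (limma adjusted p = 0.0590). Rbp2, Apob and Fabp6 did not follow Fabp2 in DSS 3. Rbp2 had 41.6 FPKM in DSS 1 and 31.2 FPKM in DSS 3, below the control samples (56.9 to 64.2 FPKM). In DSS 2 Rbp2 was above them (limma adjusted p = 0.683). Apob had 4.48, 18.9 and 4.96 FPKM in DSS 1, 2 and 3 (limma adjusted p = 0.715). In control colon Apob lay between 5.04 and 8.08 FPKM. Fabp6 in DSS 3 lay within the control values. The summed level of the 12 lay between 173 and 1262 FPKM in DSS and between 183 and 217 FPKM in control colon, and Defa24, a Paneth cell defensin, was listed at 0 in all 6 samples. The labels give no stretch of colon, so sampling site and an effect of colitis on these Hox and small intestine genes cannot be told apart. What part either had in the changes of Slc3a1 and Slc15a1 was not tested.

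**Figure D3:**
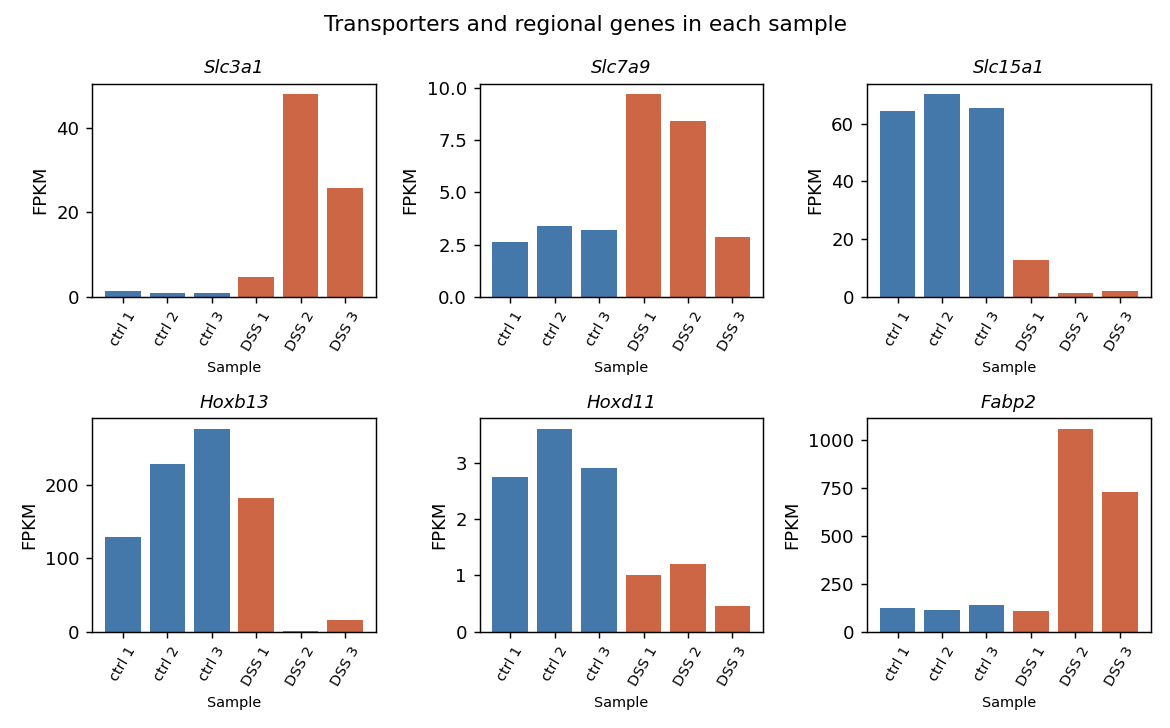
FPKM of Slc3a1, Slc7a9, Slc15a1 and of Hoxb13, Hoxd11 and Fabp2 in each control (blue) and DSS (orange) sample, 1 bar per sample, each panel with its own axis. DSS 1 sits near the controls for Hoxb13 and Fabp2 and is the DSS sample closest to them for Slc3a1 and Slc15a1. For Slc7a9 DSS 1 is the DSS sample farthest from the controls, and for Hoxd11 DSS 2 is the closest.

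Slc6a14 encodes a sodium- and chloride-coupled carrier of broad range that accepts neutral and cationic amino acids at the apical membrane. It lies on chromosome X, 21714896 to 21742355 on the plus strand in GRCm38. The DSS samples held 139, 148 and 109 FPKM and the control samples 147, 252 and 241 FPKM. Control 1 lay at the level of DSS 2, and the other 2 control samples were above all DSS samples. The log2 fold change was -0.66 ± 0.24 (SE, 95% interval -1.21 to -0.11, limma adjusted p = 0.121), and no alternative brought it past the threshold (adjusted p 0.0511 to 0.396).

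Slc6a19 encodes B0AT1, the main sodium-coupled carrier of neutral amino acids in the small intestine, on chromosome 13, 73679745 to 73704865. It was listed at 0.0607, 0.908 and 0.252 FPKM in DSS 1, 2 and 3, while control 1, 2 and 3 held 0.235, 0.0544 and 0.147 FPKM. It was the lowest of the 10 in each group, and no sample reached 1 FPKM. With the filter lowered to 0.1 FPKM it entered the test and was not called (log2 fold change 0.25 ± 0.21 SE, limma adjusted p = 0.482). Tmem27, its partner in kidney, was listed at 0 in all 6 samples. The log2 ratio of Slc6a14 to Slc6a19, each as FPKM + 1, was 7.51 ± 0.53 in control and 6.60 ± 0.40 in DSS colon (SD over 3 samples; two-sided exact permutation p = 0.2, adjusted p = 0.333 over 5 ratios). The added 1 lowers this ratio because Slc6a19 is below it: from FPKM alone the means were 10.7 ± 1.44 in control and 9.09 ± 1.93 in DSS colon.

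Slc1a1 encodes EAAT3, a sodium-coupled carrier of glutamate, aspartate and cysteine. It lies on chromosome 19, 28835049 to 28913960 on the plus strand in GRCm38. The DSS samples held 7.80, 1.19 and 2.97 FPKM and the control samples 6.65, 11.2 and 8.97 FPKM. DSS 2 and DSS 3 were below all control samples, and DSS 1 lay within them, the same division of the DSS samples as for Hoxb13. In the fit its log2 fold change was -1.20 ± 0.48 (SE, 95% interval -2.34 to -0.06, limma adjusted p = 0.159). Without DSS 1 the gene passed the test (log2 fold change -1.73, adjusted p = 0.0126, 0.0126 to 0.337 over all alternatives). Exons of 4430402I18Rik on the opposite strand overlap those of Slc1a1, and it was listed at no more than 0.452 FPKM in any sample.

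Slc1a5 encodes ASCT2, an exchanger of glutamine and other small neutral amino acids, on chromosome 7, 16781340 to 16798274. The DSS samples held 33.5, 47.8 and 59.5 FPKM and the control samples 25.6, 31.3 and 43.1 FPKM. The groups overlapped, with DSS 1 below control 3. Its log2 fold change was 0.48 ± 0.26 (SE, 95% interval -0.14 to 1.09, limma adjusted p = 0.278), and no alternative brought it past the threshold (adjusted p 0.0524 to 0.583). It was the second most abundant of the 10 in DSS colon by mean FPKM and the third in control colon.

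Slc3a2 encodes the heavy chain CD98, which pairs with several light chains at the basolateral membrane of epithelium and at the surface of dividing cells and leukocytes. It lies on chromosome 19, 8706882 to 8723369 on the minus strand in GRCm38. The DSS samples held 29.9, 11.5 and 12.7 FPKM and the control samples 25.1, 23.9 and 22.3 FPKM. DSS 1 was above all control samples while DSS 2 and DSS 3 were below them, so the DSS samples went in opposite directions. This gave a log2 fold change of -0.50 ± 0.33 (SE, 95% interval -1.28 to 0.28, limma adjusted p = 0.361). Without DSS 1 the gene passed the test, lower (log2 fold change -0.92, adjusted p = 0.0121, 0.0121 to 0.698 over all alternatives).

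The light chains Slc7a5 (LAT1) and Slc7a8 (LAT2) exchange large neutral amino acids in partnership with CD98. Slc7a5 lies on chromosome 8, 121881150 to 121907694, and Slc7a8 on chromosome 14, 54722209 to 54781946. Slc7a5 had 1.77, 1.04 and 2.61 FPKM in DSS 1, 2 and 3 and 2.27, 0.948 and 0.921 FPKM in control 1, 2 and 3. Slc7a8 had 1.66, 1.13 and 1.84 FPKM in DSS 1, 2 and 3 and 1.44, 1.70 and 1.45 FPKM in control 1, 2 and 3. Both stayed at low levels and their groups overlapped. The log2 fold change was 0.25 ± 0.29 for Slc7a5 (SE, 95% interval -0.44 to 0.93, limma adjusted p = 0.623) and -0.00 ± 0.18 for Slc7a8 (SE, 95% interval -0.42 to 0.41, limma adjusted p = 0.999).

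The RNA of CD98 exceeded that of either light chain in every sample. The log2 ratio of Slc7a5 to Slc3a2, each as FPKM + 1, was -3.42 ± 0.37 in control and -2.67 ± 0.78 in DSS colon (SD over 3 samples; two-sided exact permutation p = 0.2, adjusted p = 0.333 over 5 ratios). For Slc7a8 to Slc3a2 it was, on the same scale, -3.29 ± 0.11 in control and -2.79 ± 0.66 in DSS colon (SD over 3 samples; two-sided exact permutation p = 0.4, adjusted p = 0.5). From FPKM alone the control and DSS means were -4.24 and -3.27 for Slc7a5 and -3.96 and -3.44 for Slc7a8. Between the light chains the log2 ratio of Slc7a5 to Slc7a8, again as FPKM + 1, was -0.13 ± 0.49 in control and 0.12 ± 0.21 in DSS colon (SD over 3 samples; two-sided exact permutation p = 0.5, adjusted p = 0.5).

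Slc7a7, the light chain that releases cationic amino acids at the basolateral side, was the most abundant partner of CD98, at 24.6, 15.6 and 17.9 FPKM in DSS 1, 2 and 3 and 15.3, 16.0 and 15.0 FPKM in control 1, 2 and 3 (limma adjusted p = 0.353). The 6 light chains Slc7a5, Slc7a6, Slc7a7, Slc7a8, Slc7a10 and Slc7a11 summed to 33.3, 23.4 and 31.3 FPKM in DSS 1, 2 and 3 and to 22.9, 20.9 and 20.1 FPKM in control 1, 2 and 3. Per FPKM of Slc3a2 this was 1.11, 2.04 and 2.46 in DSS 1, 2 and 3 and 0.912, 0.878 and 0.901 in control 1, 2 and 3. The DSS samples were above the control samples in both measures, most in DSS 2 and DSS 3 for the ratio, where Slc3a2 was lowest. For the sum the margin was narrow, with DSS 2 at 23.4 and control 1 at 22.9 FPKM. Groups did not overlap in 35.1% of all tested genes, and neither measure was tested.

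CD98 and its partners are also used by dividing cells and leukocytes, and both kinds of marker were read beside them. The summed level of 10 proliferation markers was 263, 104 and 208 FPKM in DSS 1, 2 and 3 and lay between 150 and 193 FPKM in control colon, and none of the 10 was called (0 at an unadjusted limma p under 0.05). Pcna, the replication clamp, was their most abundant member, with means of 83.3 ± 13.6 FPKM (DSS) and 82.1 ± 9.12 FPKM (control, SD over 3 samples). Of 11 tested leukocyte markers 6 rose and none fell, where 6.34% of all tested genes were higher and 2.56% lower. Among the 6 were Itgam and Itgb2, which encode an integrin of myeloid cells. The macrophage marker Cd68 had 6.10, 2.17 and 7.23 FPKM in DSS 1, 2 and 3. In control 1, 2 and 3 it had 7.45, 6.87 and 4.50 FPKM (limma adjusted p = 0.610). The B cell genes Cd79a and Ms4a1 were above the control samples in DSS 1 and below them in DSS 2 and DSS 3. Neither was called (limma adjusted p = 0.790 and 0.837). The summed level of the 14 leukocyte markers lay between 3975 and 6776 FPKM in DSS and between 34.7 and 65.5 FPKM in control colon. Most of that sum came from the neutrophil genes S100a8 and S100a9, and Ptprc, the marker of all leukocytes, had 3.06, 2.02 and 2.18 FPKM in DSS 1, 2 and 3 and 2.13, 1.04 and 2.01 FPKM in control 1, 2 and 3 (limma adjusted p = 0.367). The share of these cells in the transporter values was not tested.

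Other carriers of amino acids and peptides were read from a list of 42 genes, of which 19 were tested, 1 rose, 1 fell and 17 did not pass. Scaled to the epithelial markers, 10 were called higher and 1 lower, beside 3433 higher and 245 lower among all 12348 tested genes. In the reported fit their median log2 fold change was 0.35, beside 0.13 over all tested genes. In that fit 6.34% of all tested genes were higher and 2.56% lower. Slc15a3, a proton-coupled carrier of histidine and peptides in lysosomes and endosomes of immune cells, rose: it had 8.13, 6.71 and 6.45 FPKM in DSS 1, 2 and 3 and 1.34, 1.28 and 1.15 FPKM in control 1, 2 and 3. The DSS samples were tight and far above the controls, in contrast to its family member Slc15a1, and the log2 fold change was 1.84 ± 0.17 (SE, limma adjusted p = 0.00124, at most 0.0131 over all alternatives). Exons of Tmem132a on the opposite strand overlap those of Slc15a3, so some of its reads could belong to either gene. Slc36a1, a proton-coupled carrier of small neutral amino acids, fell: it had 7.76, 4.58 and 4.74 FPKM in DSS 1, 2 and 3 and 17.8, 16.2 and 36.3 FPKM in control 1, 2 and 3 (log2 fold change -1.81 ± 0.33 SE, limma adjusted p = 0.0192). Its call was lost without DSS 2 (adjusted p = 0.0501), DSS 3 (0.0731) or control 1 (0.0539).

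Partners of the apical carriers and the peptidases that supply them were read from a list of 16 genes, of which 13 were tested, 1 rose, 1 fell and 11 did not pass. Among all tested genes 6.34% were higher and 2.56% lower. The list had a median log2 fold change of -0.23, beside 0.13 over all tested genes. Under median-of-ratios and upper-quartile scaling 1 of the listed genes was called higher and 3 lower. Of all 12348 tested genes 516 were lower under the first and 536 under the second, with 527 and 505 higher. Ggt1, the surface enzyme that breaks down glutathione and feeds cysteine uptake, rose from 0.523, 0.0814 and 0.384 FPKM in control 1, 2 and 3 to 7.69, 21.7 and 9.98 FPKM in DSS 1, 2 and 3 (log2 fold change 3.30 ± 0.36 SE, limma adjusted p = 0.00262, at most 0.0202 over all alternatives). Dpp4, a peptidase that clips dipeptides from the ends of peptides, fell from 7.41, 7.18 and 6.40 FPKM in control 1, 2 and 3 to 2.05, 3.36 and 2.74 FPKM in DSS 1, 2 and 3 (log2 fold change -1.12 ± 0.19 SE, limma adjusted p = 0.0144). The Dpp4 call was lost without control 1 (adjusted p = 0.0568), control 2 (0.0720) or control 3 (0.0587). Exons of Gm13561 on the opposite strand overlap those of Dpp4.

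Enzymes that use or make amino acids were read from a list of 26 genes, of which 22 were tested, 4 rose, none fell and 18 did not pass. Among all tested genes 6.34% were higher and 2.56% lower. The median log2 fold change of the list was 0.34, beside 0.13 over all tested genes. At an unadjusted limma p under 0.05, 5 of the list were higher and 1, Glul, was lower. By that cut-off 2505 of all 12348 tested genes were higher and 988 lower. The 4 called genes encode enzymes of tryptophan and arginine breakdown. Ido1, which opens the tryptophan ring, had 89.3, 157 and 58.7 FPKM in DSS 1, 2 and 3 and 9.45, 5.30 and 4.14 FPKM in control 1, 2 and 3 (log2 fold change 3.77 ± 0.40 SE, limma adjusted p = 0.00281). Nos2, the inducible nitric oxide synthase, had 9.54, 12.3 and 26.8 FPKM in DSS 1, 2 and 3 and 0.884, 0.0782 and 2.25 FPKM in control 1, 2 and 3 (limma adjusted p = 0.0140). Arg1, the arginase of myeloid cells and liver, had 6.34, 13.6 and 12.3 FPKM in DSS 1, 2 and 3 and 0.426, 0.0995 and 0.479 FPKM in control 1, 2 and 3 (limma adjusted p = 0.00151).

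Arg2, the mitochondrial arginase, had 10.2, 78.7 and 17.6 FPKM in DSS 1, 2 and 3 and 1.65, 2.57 and 2.75 FPKM in control 1, 2 and 3 (limma adjusted p = 0.0446). DSS 2 held the highest Arg2 of all samples, as it did for Slc3a1. Exons of Gm48780 and Vti1b on the opposite strand overlap those of Arg2, so some of its reads could belong to one of them. The Arg2 call was lost without DSS 3 (adjusted p = 0.0974), control 1 (0.131), control 2 (0.125) or control 3 (0.135), with no filter (0.0712) and under median-of-ratios (0.0540) or upper-quartile scaling (0.0545), and the Nos2 call without control 1 (0.0614). The cationic amino acid carrier Slc7a1, which supplies arginine to many cells, had 2.23, 2.41 and 3.39 FPKM in DSS 1, 2 and 3 and 4.09, 1.90 and 1.92 FPKM in control 1, 2 and 3 (limma adjusted p = 0.914).

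**Figure D4:**
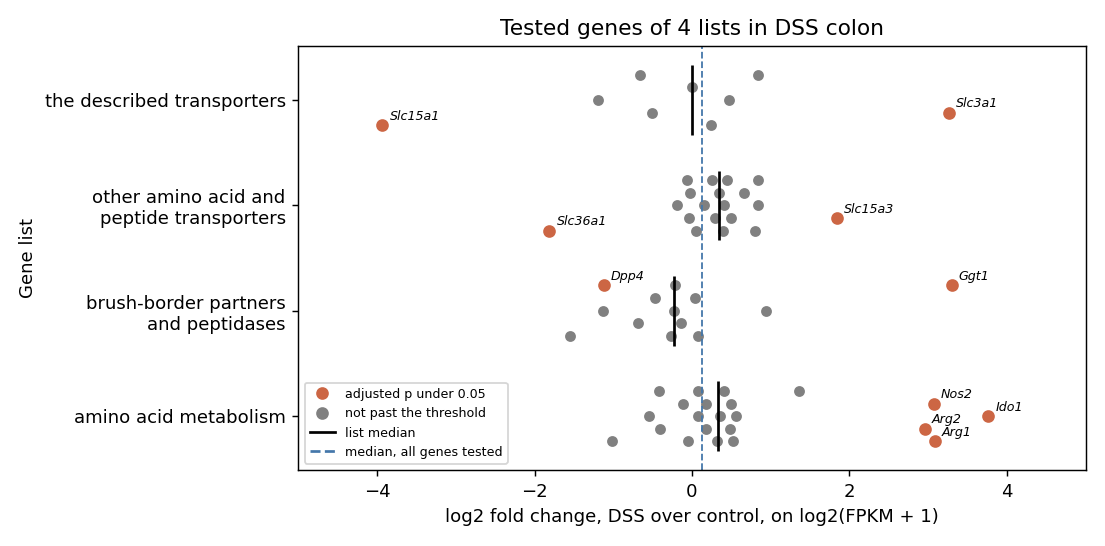
Log2 fold changes (DSS over control) of the tested genes in 4 lists, 1 point per gene with those past an adjusted p of 0.05 in orange, black bars at list medians and a dashed line at the median of all tested genes. The median of the 9 described transporters is -0.00, and Slc15a1 has the largest fall and Ido1 the largest rise shown.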

How the data were processed

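The submitters' processing notes name TopHat2 2.1.1 and the mm10 build. The authors deposited FPKM per gene, per the file headers, and what program and annotation produced them is not given in the sources used here. Per the labels' protocols a non-directional second-strand module was used, so strand was taken as not recorded. Ratios of low values between samples did not pile up as whole reads would (at most 3.33% of genes below 0.1 FPKM shared a bin of 0.02 log2 units), and no samples held identical values.

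Groups and replicate numbers came from sample titles. Genes at 1 FPKM or more in 3 or more samples entered limma (version 3.58.1, R version 4.3.3) as log2(FPKM + 1), with robust and trended variance moderation, two-sided tests, Benjamini-Hochberg adjustment over all 12348 genes and a threshold of 0.05. Fold changes on this scale understate the change of low genes. Partner ratios were compared with exact permutation tests over samples in scipy 1.17.1. The fit was tested on simulated data. The 10 genes, the lists and the motifs were chosen with earlier results of these data known. Named beside them were up to 6 called genes of each list in each direction and, of marker lists, the most abundant or called genes. Not every gene that met this rule is described. Partner genes (Tmem27, the light chains), Ptprc, Cd68, Cd79a, Ms4a1, Cdx2, Slc7a1, Hoxb6, Hoxc6, Defa24, Rbp2, Apob and genes given by an unadjusted p were named after their values were seen. Loci were taken from the GENCODE vM21 annotation, whose assembly, GRCm38, is mm10. None of the 10 transporters and of the 8 called genes among other carriers, partners and metabolic enzymes had a copy of at least 95% identity over 200 bases (BLAST+ 2.17.0). Promoters are from RefSeq. A total of 16 alternatives covered scaling, filter, pseudocount, moderation, a replicate block and each sample left out. H3K27ac was not analysed here.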

Additional observations from a re-analysis of the deposited data

How the results depend on the processing

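Over 16 alternatives Slc15a1 stayed lower (log2 fold change -4.75 to -3.43) and Slc3a1 higher (2.60 to 4.15) in DSS, with calls lost in 4 and 7 of them. Leaving out 1 sample each gave 209 to 1165 genes higher and 79 to 606 lower, 0 to 1 of the transporters higher and 0 to 3 lower, 1 to 4 other carriers called, 1 to 4 partners and peptidases called and 2 to 6 metabolic genes called. The 3 lower without DSS 1 were Slc15a1, Slc3a2 and Slc1a1, and the 1 higher without DSS 3 was Slc7a9. The highest counts of genes, 1165 higher and 606 lower, came without DSS 1.

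Under upper-quartile scaling 505 genes were higher and 536 lower, with 4 partners and peptidases called (1 higher, 3 lower). Under median-of-ratios scaling 516 genes were lower and 4 partners and peptidases were called (1 higher, 3 lower). Scaling to epithelial markers gave 3433 genes higher, 11 other carriers (10 higher, 1 lower) and 8 metabolic genes called, all 8 higher. With no filter 0 transporters were higher, because Slc3a1 had adjusted p = 0.0669 over 19058 genes. Slc7a8, near 0 in the reported fit, turned positive with epithelial scaling (0.21), without DSS 2 (0.12) and without control 2 (0.05), and lay between -0.086 and 0.12 with 1 sample left out. Where no value is given beside a change, the cause was not tested.

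With the replicate number as a block 0 transporters were higher (Slc3a1 adjusted p = 0.0667) and 640 genes were higher and 255 lower. The numbers were not taken to pair the samples: correlations of deviations were 0.0818, 0.129 and 0.00308, and DSS 3 correlated better with control 1 (0.0341) than with control 3. With a pseudocount of 0.1 FPKM the Slc6a14 to Slc6a19 difference moved from -0.92 to -1.38. The 5 partner ratios kept their direction in 8 alternatives each and could not pass the threshold in any.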
